A study of Mus musculus with 8 samples.

Results

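The untreated arm of a study of TWEAK, a cytokine of the TNF superfamily, on primary mouse lung fibroblasts consisted of 2 RNA-seq libraries, which the sample titles number 1 and 2. They were chosen by their label alone and make up 2 of the 8 libraries of the series. The other 6 libraries, cells given recombinant TWEAK at 10, 30 or 100 ng/ml, 2 libraries a dose, are not described here. The untreated cells were wild-type fibroblasts from lung, collected at 48 h without TWEAK, and the growth protocol for all samples was DMEM with 10% fetal bovine serum and antibiotics. Serum was therefore part of the untreated state, as far as the protocol says. The labels are silent on strain, age, sex, passage and the number of animals, and on whether the libraries came from separate cultures. The spread between them may therefore be technical, and with 1 group and no contrast the values below are a description without a test. In bulk RNA, fewer cells with a transcript and less of it per cell cannot be told apart.

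Fibroblasts are the mesenchymal cells that build and remodel connective tissue. In the lung they secrete the fibrillar collagens, fibronectin and elastic fibre proteins that hold the alveolar walls, and they pass growth factors to the neighbouring epithelium and vessels. Lung fibroblasts carry a transcription factor programme that includes Tcf21, Foxf1 and Tbx4.

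Levels are given for each gene as a pair, replicate 1 first. CPM are a gene’s share of the counts in rows with a symbol, scaled to a total of 1000000 in each library, the scale used to say whether a gene was detected, which here means at least 1 CPM in both libraries. TPM are counts per kilobase of annotated exon, rescaled to the same total in each library, the scale used to set genes beside each other. Total counts were 50896445 and 50560049 in a series whose libraries ran from 37345575 to 50896445. A gene with 0 counts could still have been present at up to 3 counts, which is 0.0590 and 0.0594 CPM, counting error only. Of 52110 rows with a symbol, 13171 (25.3%) were detected, 9747 had counts below that level in at least 1 library, and 29192 (56.0%) had 0 counts in both. At least 10 CPM in both libraries was reached by 9475 genes, 100 CPM by 2041 (3.92%) and 1000 CPM by 83. The gene lists below hold mostly protein-coding genes, for which the shares were higher. Of 21614 protein-coding rows 11909 (55.1%) were detected and 1993 reached 100 CPM. The counts of members in each list below are to be read against these shares. A list with a share near 55.1% was detected about as often as protein-coding rows at large. The median over all rows with a symbol was 0 CPM in each library, since most rows had 0 counts.

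Promoter sequences are shown for 4 genes that the levels below return to: a chain of type I collagen, the type III collagen chain, the most abundant secreted metalloproteinase and a chemokine near the top of its list. They were picked by hand, so the motifs in them do not describe abundant genes in general. Each is 150 bases of the RefSeq promoter table (GRCm38.p6), from 130 bases before the annotated start to 20 bases from the start on, 5′ to 3′ on the plus strand. Capitals mark every TATAAA (the classical TATA box letters) or CCAAT (the CCAAT box letters) on either strand, and positions count the first base of the match from the annotated start, with 1 as the start base itself.
Col1a2, chr6:4505488-4505637: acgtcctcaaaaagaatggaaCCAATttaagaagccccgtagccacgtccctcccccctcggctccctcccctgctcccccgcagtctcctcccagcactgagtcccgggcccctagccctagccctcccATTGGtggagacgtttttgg
Col3a1, chr1:45311408-45311557: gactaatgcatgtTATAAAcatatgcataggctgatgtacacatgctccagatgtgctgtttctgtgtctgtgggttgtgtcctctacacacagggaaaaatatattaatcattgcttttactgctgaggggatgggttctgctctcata
Mmp3, chr9:7445692-7445841: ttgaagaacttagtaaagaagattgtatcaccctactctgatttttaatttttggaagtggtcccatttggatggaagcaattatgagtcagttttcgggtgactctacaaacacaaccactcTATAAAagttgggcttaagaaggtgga
Ccl8, chr11:82115055-82115204: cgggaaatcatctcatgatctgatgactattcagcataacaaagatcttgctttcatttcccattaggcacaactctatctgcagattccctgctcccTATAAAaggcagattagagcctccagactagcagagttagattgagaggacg
The Ccl8 window held TATAAA at -32 and the Mmp3 window at -7. In the Col3a1 window it lay at -117. Col1a2 had no TATAAA but CCAAT at -109 and, on the other strand, at position 1. The motifs do not overlap each other. Among all 32851 windows of 27025 genes, 7.36% held TATAAA and 24.2% held CCAAT. Of the 100 nuclear protein-coding genes with the highest TPM, 77 had entries, 92 windows in all, and the shares were 9.78% and 20.7%. A match is a run of letters, not a shown binding site.

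Levels of 5 fibroblast markers are set beside the label, and all were detected in both libraries. The markers were chosen with earlier results of these data known, so their detection is no independent check of the label. The type I collagen chains Col1a2 and Col1a1 stood at 4348 and 4173 CPM and at 4068 and 3999 CPM. Pdgfra, a receptor for PDGF that marks fibroblasts of the alveolar wall, stood at 1257 and 1233 CPM. Pdgfra is also a member of the peribronchial and ductal list below, so it does not tell these subtypes apart. Itga8, an integrin chain of alveolar fibroblasts and smooth muscle, stood at 209 and 199 CPM. Tcf21, a mesenchymal transcription factor of lung and kidney, was the lowest of the 5 by CPM at 43.5 and 41.03 CPM. Each marker differed between the libraries by far less than the markers differed from each other, with the exception of the similar collagen chains.

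No marker of another cell type reached 100 CPM in both libraries, the lists differed in how many of their members were detected, and their order is given by CPM. Of 18 epithelial markers 1 was detected, Hopx of alveolar type I cells at 3.66 and 6.56 CPM. Krt8, Cdh1, Epcam, Nkx2-1, the surfactant gene Sftpb and 5 others had 0 counts in both libraries, and the surfactant gene Sftpc had 0 and 0.0198 CPM. The summed level of the epithelial list was 5.69 and 9.17 CPM. None of 13 lymphocyte markers was detected, nor any of 7 erythroid markers, whose summed levels were 0.197 and 0.218 CPM. The myeloid list had 4 of 17 detected and a sum of 17.0 and 13.2 CPM, led by the lysozyme gene Lyz2 at 10.9 and 7.91 CPM. Ptprc, the pan-leukocyte gene that encodes CD45, stood at 0.0590 and 0 CPM, and Marco of alveolar macrophages at 0.

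Endothelial markers summed to 23.9 and 24.8 CPM, with 5 of 14 detected. The largest part of that sum was the VEGF receptor gene Flt1 at 13.03 and 13.5 CPM, while Cldn5, Tie1 and Emcn had 0 counts and Pecam1 stood at 0 and 0.0594 CPM. Mural markers, which mark smooth muscle and pericytes, gave the largest sum of the non-fibroblast lists, 210.4 and 196.3 CPM, with 9 of 14 detected. Its highest members were the contractile genes Actg2 at 37.6 and 38.3 CPM and Des at 34.95 and 27.3 CPM, and the pericyte channel gene Kcnj8 at 27.1 and 27.2 CPM. The pericyte genes Higd1b, Rgs5 and Cspg4 were not detected, Higd1b at 0 counts. Fibroblasts also express several of these contractile genes, and whether other cells contributed was not tested.

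Mesothelial markers, from the cells that line the lung surface, were detected for 8 of 10 genes at low levels. Rspo1 was the highest at 12.4 and 12.7 CPM, followed by Upk3b at 6.24 and 6.93 CPM. The classical mesothelial surface gene Msln stood at 0 and 0.0991 CPM, and the summed level was 41.9 and 41.4 CPM. The neural list had 3 of 9 detected and consisted almost wholly of the tubulin gene Tubb3 at 68.3 and 65.6 CPM, with Sox10, Elavl4 and Snap25 at 0. Of the adipocyte list 3 of 7 were detected, led by the lipase gene Lpl at 30.98 and 34.5 CPM, with the lipid-droplet genes Plin1 and Cidec and the hormone gene Lep at 0. Of 10 muscle markers 1 was detected, the troponin gene Tnni3 at 1.99 and 1.59 CPM. In the cartilage and bone list 1 of 8 was detected, the transcription factor Sox9 at 15.1 and 13.8 CPM, with Acan, Sp7, Bglap and Ibsp at 0. These sums compare with 9926 and 9646 CPM over the 5 fibroblast markers, most of it from the type I collagen chains. CPM are not corrected for length, and the lists differ in size. On the TPM scale the fibroblast markers summed to 3537 and 3402 TPM and the mural list to 208 and 197 TPM.

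**Figure D1:**
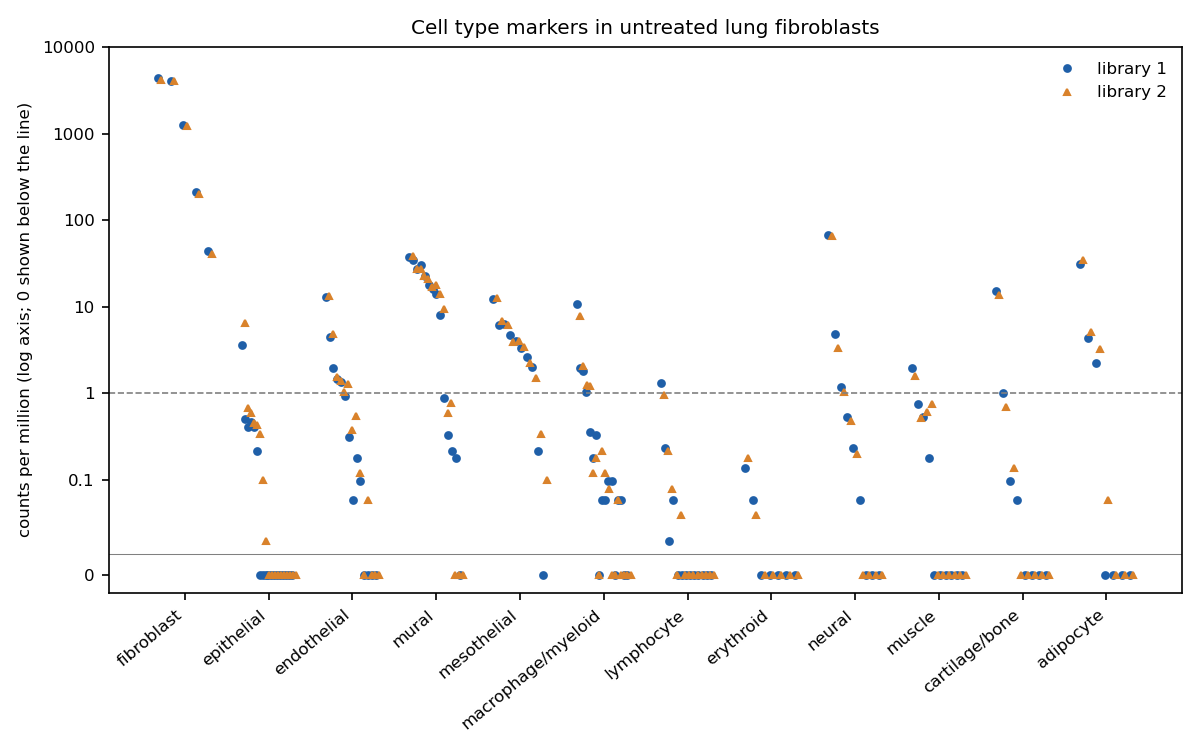
CPM (vertical log axis, with 0 drawn below the grey line) of every marker gene of 12 cell types, 1 circle or triangle per gene and library. The 5 fibroblast markers lie between 41.0 and 4348 CPM, while most markers of epithelial, lymphoid and erythroid cells lie under the dashed line at 1 CPM or at 0.

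The count pool was spread over many genes. The 10 most abundant genes held 6.91% and 6.84% of all counts, the 100 most abundant 21.5% and 21.4%, and 824 genes were needed to reach 50%. By CPM the first place went to the mitochondrial cytochrome oxidase gene mt-Co1 at 12946 and 13280.2 CPM. Second was Fn1 (chr1:71585520-71653200 in mm10), fibronectin, the adhesive glycoprotein that links cells to collagen, at 11818 and 10974 CPM. After it came Col3a1 (chr1:45311538-45349706), the chain of type III collagen, at 8822 and 8758 CPM. They were followed by the elongation factor Eef1a1 at 8204 and 8300.1 CPM and by Mgp, matrix Gla protein, which holds back calcification, at 5264 and 5951 CPM. Of the 20 highest genes 5 were mitochondrial, 3 were collagen chains and none coded for a ribosomal protein. The others included the proteoglycan Bgn, the endocytic receptor Lrp1, Sparc, its relative Sparcl1, the actin-severing protein Gsn, ferritin light chain Ftl1 and the lysosomal proteases Ctsd and Ctsb.

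On the TPM scale, which takes out gene length, short transcripts moved up. The 20 highest TPM included 10 mitochondrial genes and 7 predicted genes, 5 of these being pseudogenes and 2 being short features of miRNA biotype that lie inside the exons of Ftl1 and Rpl19. Because reads of such copies could have been shared among rows, an additional list of the 30 nuclear protein-coding genes with the highest TPM was drawn up after the values were seen. Mgp led it at 13735 and 15329 TPM, ahead of Eef1a1 at 10191 and 10180.1 TPM and Ftl1 at 6335 and 6983 TPM, and this order was the same with the longest transcript as length. Next came the lysosomal protease Ctsd at 4543 and 4167 TPM. Genes of the extracellular matrix and its turnover further down that list were Mmp3, Sparc, Fn1, Sparcl1, Col3a1 and Bgn. The remainder included 6 ribosomal protein genes, the galectin Lgals1, the interferon-inducible membrane proteins Ifitm2 and Ifitm3, the MHC class I light chain B2m and the lipid carrier Apoe. Apoe stood at 1741 and 2407 TPM, one of the wider pairs on that list.

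Ribosomal protein genes, 85 of 89 detected, held 3.59% and 3.74% of counts and 6.74% and 7.01% of TPM. Mitochondrial genes held 3.77% and 3.79% of counts and 12.2% and 11.96% of TPM, and 23 of 37 were detected, including all 13 that code for protein. Collagens, by contrast, held 2.53% and 2.47% of counts but 0.896% and 0.863% of TPM, since their messages are long. Of the collagen counts, Col1a1, Col1a2 and Col3a1 together made up 1.72% and 1.69% of all counts.

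Fibrillar collagens, which assemble into the tensile fibres of connective tissue, were detected for 10 of 11 chains, against 25.3% of all rows and 55.1% of protein-coding rows. Of the chains 5 reached 100 CPM, against 3.92% of all rows and 1993 of 21614 protein-coding rows. Col3a1 was the highest at 2783 and 2728 TPM, whichever length was used. Col1a1 (chr11:94936224-94953042), the alpha 1 chain of type I collagen, stood at 1919.5 and 1863 TPM. Its partner Col1a2 (chr6:4504814-4541544), the gene whose CCAAT letters are shown above, stood at 1084 and 1027 TPM. The Col1a1 to Col1a2 ratio was 1.77 and 1.81 over the union of exons but 0.844 and 0.864 over the longest transcript, so the order of these chains depends on the length used. The protein is built from these chains in a fixed ratio, but the counts do not settle the ratio of the messages. Col5a2 and Col5a1, chains of type V collagen that nucleate fibrils, stood at 786 and 769.6 TPM and at 282 and 261 TPM. Below them came a step down to Col5a3 at 23.2 and 22.2 TPM and Col11a1 at 9.37 and 9.62 TPM, and the cartilage chain Col2a1 had 0.0590 and 0 CPM.

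Among 33 other collagen chains 19 were detected (57.6%, near the 55.1% of protein-coding rows) and 9 reached 100 CPM. The basement membrane chains Col4a1 and Col4a2, which lie head to head and share exon sequence in the annotation, stood at 679 and 639 TPM and at 549 and 509 TPM. Counts in the shared stretch could belong to either. Col6a1, of the beaded filaments of type VI collagen, stood at 290.2 and 277 TPM, while its partners were lower, Col6a2 at 75.4 and 73.04 TPM and Col6a3 at 66.4 and 62.4 TPM. Col14a1, a fibril-associated chain of adventitial fibroblasts, stood at 94.9 and 92.5 TPM. Col4a3 and Col4a4, the chains of the mature alveolar and glomerular basement membrane, stood at 0.453 and 0.357 CPM and at 0.118 and 0.277 CPM, and Col9a1 and Col26a1 had 0 counts. The hypertrophic cartilage chain Col10a1 was also under the detection level at 0.216 and 0.178 CPM.

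Basement membrane genes other than collagens were detected for 12 of 15, with 8 at 100 CPM or more. The linker proteins nidogen 2 and 1 led the list, Nid2 at 289.5 and 268 TPM and Nid1 at 278 and 276 TPM, with ranges that overlapped. The laminin beta 1 chain Lamb1 followed at 252 and 245 TPM and moved to first place when the longest transcript was the length. Lamc1, the gamma 1 chain, stood at 201 and 195 TPM, and perlecan, Hspg2, at 146 and 132 TPM. Among alpha chains the mesenchymal Lama4 was highest at 102 and 100.5 TPM. Of the chains typical of epithelial laminin, Lama3 stood at 0.138 and 0.0991 CPM and Lamb3 at 0.0984 and 0.258 CPM.

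Glycoproteins held more counts than any other matrix list, 3.05% and 2.92%, and 31 of 37 genes were detected, 23 of them at 100 CPM or more. Sparc, a collagen-binding protein, stood at 3289.8 and 3195 TPM, Fn1 at 3132 and 2872 TPM and Sparcl1 at 2780.4 and 2792 TPM. After a gap came a run of genes whose order changes with the length used, down to the thrombospondin Thbs1 at 479.7 and 469 TPM. In it tenascin C, Tnc, known from developing and injured tissue, stood at 651 and 608 TPM. The thrombospondin Thbs2 stood at 619 and 583 TPM, the microfibril protein fibrillin 1, Fbn1, at 587 and 554 TPM, and fibulin 3, Efemp1, at 551 and 569.5 TPM. Elastin, Eln, the core of the elastic fibre, was lower at 37.96 and 38.7 TPM. The fibrillin of fetal tissue, Fbn2, stood at 1.87 and 0.971 CPM and was not counted as detected. Vtn, the vitronectin that the liver secretes into plasma, had 0 counts, as had Thbs4 and the cartilage proteoglycan Acan.

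Small leucine-rich proteoglycans bind collagen fibrils and set their spacing, and 9 of 12 were detected. Biglycan, Bgn, on the X chromosome (chrX:73483602-73495933), was the highest at 2615 and 2439.8 TPM, followed by Prelp at 989 and 969 TPM. Osteoglycin, Ogn, stood at 684 and 696 TPM and decorin, Dcn, at 571 and 606 TPM. Those last places were exchanged with the longest transcript. Lumican, Lum, an abundant member in many connective tissues, was much lower at 19.05 and 20.5 TPM, as was asporin, Aspn, at 24.3 and 23.3 TPM. The corneal member Kera had 0 counts.

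**Figure D2:**
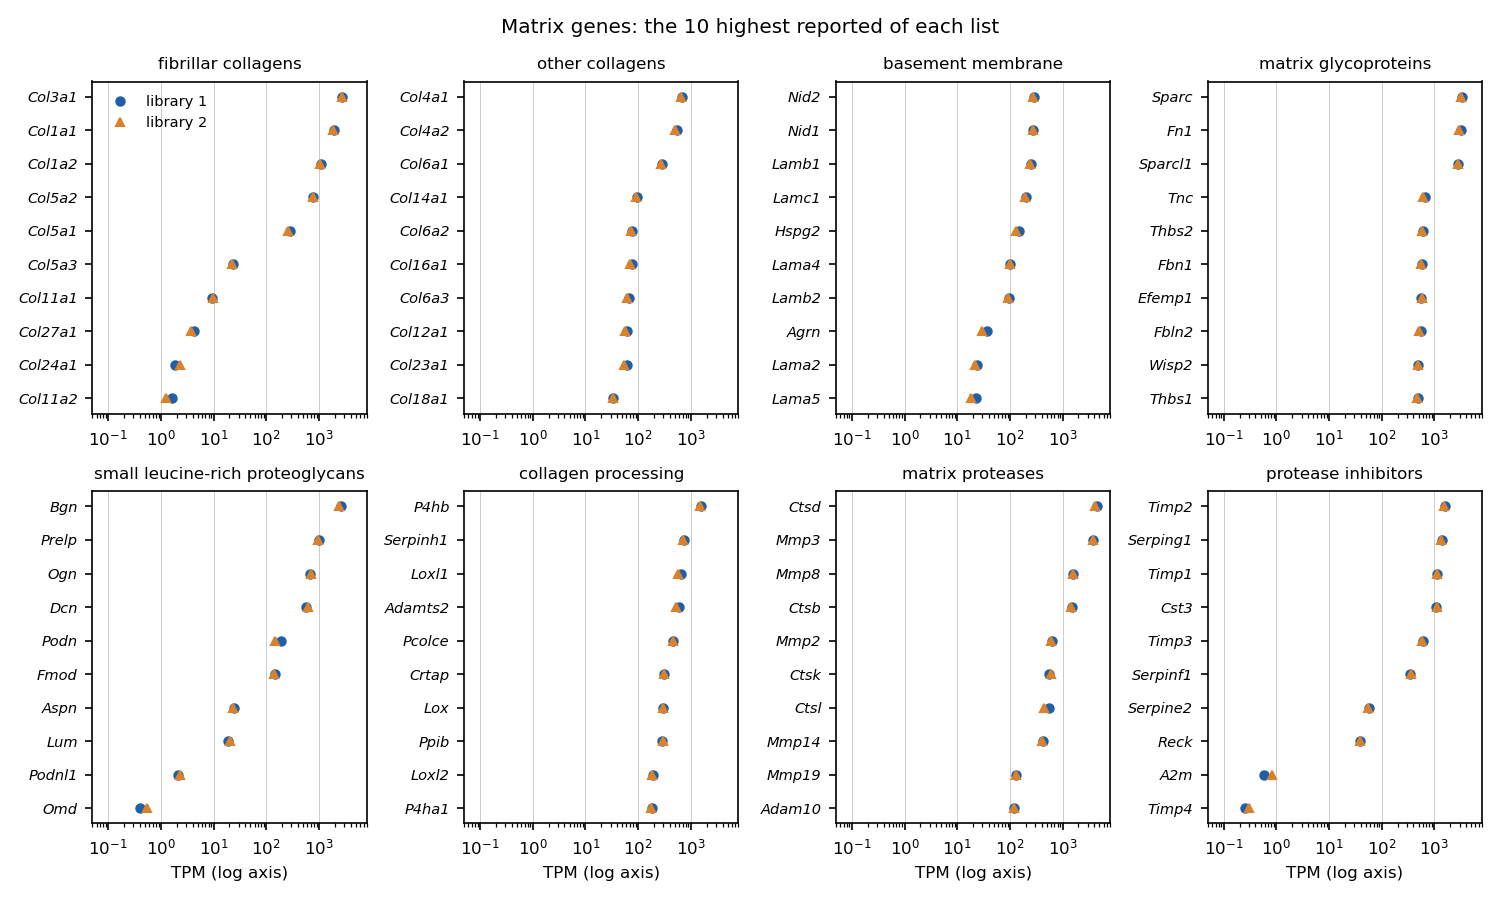
TPM (log axis) of the 10 highest genes among those reported here in each of 8 lists of matrix genes, proteases and inhibitors, with a circle for library 1 and a triangle for library 2. The symbols nearly coincide in most rows, and the fibrillar collagens and proteoglycans show a long descent while the tenth matrix glycoprotein, Thbs1, is still at 479.7 and 469 TPM.

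Genes that modify and cross-link collagen were detected for 23 of 24 members, and 16 were at 100 CPM or more. P4hb, the disulfide isomerase subunit of prolyl 4-hydroxylase, was highest at 1529 and 1505 TPM. Serpinh1, the collagen chaperone HSP47, stood at 744 and 723 TPM. Loxl1 and Lox, which cross-link elastin and collagen, stood at 648 and 568 TPM and at 291 and 296 TPM. Adamts2, which removes the amino-terminal propeptide of procollagen, stood at 592 and 535 TPM, and Pcolce, which assists removal of the other propeptide, at 455 and 467 TPM. The hydroxylase gene P3h2 was the one member not detected, at 0.216 and 0 CPM.

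Matrix proteases were detected for 27 of 31 genes. The aspartic protease cathepsin D, Ctsd, led at 4543 and 4167 TPM. Second was Mmp3 (chr9:7445822-7455975), stromelysin 1, which cuts many matrix proteins and activates other metalloproteinases, at 3711 and 3749 TPM. Mmp8, a collagenase best known from neutrophils, stood at 1542 and 1588 TPM. Of the neutrophil genes among the markers, S100a8 was just past the detection level at 1.04 and 1.23 CPM, S100a9 was at 0 counts and Ly6g at 0.0984 and 0 CPM. Cathepsin B, Ctsb, stood at 1482 and 1456 TPM and changed places with Mmp8 under the longest transcript. Mmp2, a gelatinase of fibroblasts, stood at 627 and 609.8 TPM, its membrane-bound activator Mmp14 at 433 and 409.6 TPM, and the bone-resorbing cathepsin K, Ctsk, at 552 and 609.5 TPM. The rodent interstitial collagenase Mmp13 was far lower at 44.2 and 48.7 TPM. Not detected were Mmp9, the gelatinase of inflammatory cells, at 0.177 and 0.139 CPM, Mmp24, Ctss and the epithelial Mmp7, the last at 0 counts. Fap, a surface protease of activated fibroblasts, was low at 0.969 and 1.33 TPM.

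Inhibitors of proteases were detected for 10 of 11 genes. Of the 4 tissue inhibitors of metalloproteinases, 3 were abundant: Timp2 stood at 1601 and 1518 TPM, Timp1 at 1123 and 1114 TPM and Timp3 at 603 and 578 TPM. The remaining one, Timp4, was below detection at 0.492 and 0.594 CPM. The C1 inhibitor Serping1 stood at 1389.7 and 1334 TPM and the cathepsin inhibitor cystatin C, Cst3, at 1063 and 1132 TPM, and with the longest transcript Serping1 passed Timp2 and Cst3 passed Timp1. Serpine2, a serine protease inhibitor, stood at 56.1 and 54.2 TPM.

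Contractile and cytoskeletal genes were detected for 43 of 45 members, 34 of them at 100 CPM or more. Non-muscle actin, Actb, stood at 1363 and 1395 TPM. Smooth muscle actin, Acta2, the usual marker of myofibroblasts, stood at 916 and 859 TPM, which is 0.672 and 0.616 of Actb (0.520 and 0.476 with the longest transcript). Tagln, an actin-binding protein of smooth muscle, stood at 511 and 499.8 TPM and Myl9, a myosin light chain, at 293 and 279 TPM. Markers of mature smooth muscle were lower, the myosin heavy chain Myh11 at 12.2 and 9.23 TPM and calponin, Cnn1, at 25.8 and 23.2 TPM. The intermediate filament gene Vim stood at 538 and 557 TPM. Caldesmon, Cald1, differed between the libraries at 771 and 1477 CPM, the only member averaging 10 CPM or more that was more than 1.5-fold apart. The cardiac and skeletal actins Actc1 and Acta1 were not detected.

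Lists of genes that mark fibroblast subtypes in lung were described next, and they share some members with the lists above. Of the alveolar fibroblast list 14 of 16 were detected. The microfibril protein Mfap4 stood at 296 and 298 TPM and Limch1, a regulator of myosin, at 232 and 175 TPM. Limch1 came before Mfap4 with the longest transcript. The esterase Ces1d stood at 170.1 and 176 TPM and the lipid-droplet coat gene Plin2 at 139 and 137 TPM. Inmt and Slc7a10, also on that list, were under 1 CPM at 0.295 and 0.634 CPM and at 0.0394 and 0 CPM. Of the adventitial list 16 of 18 were detected, led per length by Dcn, Serpinf1 and the surface sialomucin Cd248, the last at 211 and 203 TPM. Members known as progenitor markers differed in level. Ly6a, which encodes Sca-1, stood at 111 and 84.5 TPM, and Cd34, Dpp4 and Pi16 at 0.928 and 0.831 TPM, 0.550 and 0.662 TPM and 0.690 and 0.371 TPM. For peribronchial and ductal fibroblasts 9 of 13 were detected. Pdgfra led that list at 388 and 376 TPM, followed by Mustn1 at 101 and 107 TPM, the smooth muscle actin gene Actg2 at 74.7 and 75.3 TPM and Igf1 at 70.2 and 69.1 TPM. Below detection were Lgr6 at 0 and 0.218 CPM, the hedgehog-binding protein Hhip at 0.630 and 0.198 CPM, Fgf18 and Cdh4.

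Of the activated fibroblast list 12 of 13 were detected, with 7 at 100 CPM or more. Grem1, a secreted antagonist of BMP, was highest at 1673 and 1605 TPM, followed by Acta2, then Tnc and then osteopontin, Spp1, at 442 and 456 TPM. Periostin, Postn, stood at 67.7 and 65.8 TPM, and Cthrc1, a marker of fibrotic fibroblasts, was low at 19.8 and 20.3 TPM. Lrrc15, another such marker, had 0 and 0.0594 CPM.

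Among secreted growth factors 49 of 65 were detected, and 10 reached 100 CPM. Gas6, the ligand of the TAM receptors, was the highest at 1099.5 and 994 TPM. Vegfd, which acts on lymphatic vessels, stood at 386 and 371 TPM and adrenomedullin, Adm, a vasodilator peptide, at 359 and 351 TPM. The epithelial growth factors Fgf7 and Fgf10, which mesenchyme supplies to lung epithelium, stood at 161 and 157 TPM and at 117 and 111 TPM. Tgfb3 was the highest TGF-beta at 122 and 111 TPM, with Tgfb1 at 30.5 and 29.8 TPM and Tgfb2 at 7.92 and 9.17 TPM. Rspo3, which strengthens Wnt signals, differed between the libraries at 85.6 and 170.1 TPM. Insulin-like growth factor 1, Igf1, stood at 70.2 and 69.1 TPM, while the fetal Igf2 was at 5.27 and 3.31 TPM. Shh, Wnt3a, Wnt7b and Mstn had 0 counts, and the platelet factor Pdgfb had 0.0394 and 0 CPM.

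Secreted modulators of growth factors were detected for 21 of 27 genes, 13 of them at 100 CPM or more. After Grem1 came the Wnt binder Sfrp1 at 1153 and 1124 TPM and the IGF binding proteins Igfbp4 at 1117 and 1052 TPM, Igfbp7 at 912 and 893 TPM and Igfbp5 at 826 and 794 TPM. Sfrp1 and Igfbp4 exchanged places with the longest transcript. Follistatin-like 1, Fstl1, stood at 678 and 678 TPM. Other antagonists of the same pathways were absent or nearly so: the BMP antagonist noggin, Nog, had 0 and 0.258 CPM, the Wnt antagonist Dkk1 had 0 and 0.0793 CPM, and Wif1 and Sfrp5 had 0 counts. Igfbp2 was also below detection at 0.610 and 0.297 CPM.

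Chemokines, which direct leukocytes, were detected for 14 of 37 genes and 1, Cxcl12, reached 100 CPM in both libraries. The monocyte attractants Ccl7, Ccl8 and Ccl2 were the highest per length, with ranges that overlapped. Ccl7 stood at 307 and 359 TPM, Ccl8 (the gene with TATAAA at -32) at 313 and 321 TPM and Ccl2 at 246 and 314 TPM. Cxcl12, the stromal factor that retains haematopoietic cells, followed at 160.3 and 172 TPM and Cxcl14 at 116 and 116 TPM. The neutrophil attractants Cxcl5 and Cxcl1 stood at 89.97 and 109 TPM and at 15.2 and 25.8 TPM, and Cxcl1 was over 1.5-fold apart. Ccl2, Ccl7, Cxcl5 and Cxcl1 were all higher in library 2. In contrast Cxcl9 had 0 and 0.0991 CPM, Ccl5 had 0.256 and 0.258 CPM, and Ccl19, Ccl20, Ccl21a, Ccl22, Ccl17 and Cxcl11 were among 10 with 0 counts.

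Interleukins and other cytokines were detected for 17 of 40 genes, and 15 had 0 counts. Macrophage migration inhibitory factor, Mif, which most cells express, was the highest at 542 and 516 TPM. Csf1, the survival factor of macrophages, stood at 174 and 162 TPM. Il6 stood at 35.2 and 38.5 TPM, the alarmin Il33 at 20.7 and 24.3 TPM and Tslp at 19.97 and 24.03 TPM, the last pair with overlapping ranges. The stem cell factor gene Kitl stood at 20.9 and 19.1 TPM and Il11, a cytokine of activated fibroblasts, at 6.24 and 6.75 TPM. Il1a, Il1b, Il2, Il10, Il13, Il17a, Csf2, Osm and Ifnb1 were among those with 0 counts, which allows up to 0.0590 and 0.0594 CPM.

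TNF superfamily ligands were detected for 8 of 18 genes, and none reached 100 CPM. Tnfsf12, the gene of TWEAK itself, was the highest of its list at 67.2 and 66.98 TPM, or 32.9 and 33.2 CPM, and its row overlaps the read-through gene Tnfsfm13. Tnfsf13b, the B cell factor BAFF, stood at 10.6 and 10.4 TPM. Tnf, Lta, Ltb, Fasl, Cd40lg, Cd70, Tnfsf4 and Tnfsf14 had 0 counts in both libraries. Tnfrsf12a, the TWEAK receptor Fn14, was detected at 29.4 and 30.9 TPM, or 18.3 and 19.5 CPM, seventh of 25 TNF receptors. The ratio of Tnfsf12 to Tnfrsf12a per length was 2.29 and 2.17, and 1.23 and 1.17 with the longest transcript.

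TNF receptor genes were detected for 14 of 25 members (56.0%), near the 55.1% of protein-coding rows. Tnfrsf1a, the broadly expressed TNF receptor 1, was the highest at 398 and 369.6 TPM, then the lymphotoxin beta receptor Ltbr at 261 and 238 TPM and Tnfrsf1b, TNF receptor 2, at 115 and 113 TPM. The death receptor Fas stood at 47.5 and 55.5 TPM. Cd40, the receptor of CD40 ligand, fell on both sides of the detection level at 0.905 and 1.57 CPM, and the lymphoid receptors Tnfrsf17 and Tnfrsf13b had 0 counts. For Tnfrsf1a the ligands Tnf and Lta were at 0.

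Receptors for growth factors were detected for 46 of 55 genes, with 19 at 100 CPM or more. The PDGF receptor genes Pdgfrb and Pdgfra stood at 465 and 431 TPM and at 388 and 376 TPM, a ratio of 1.20 and 1.14 that became 0.825 and 0.788 with the longest transcript, so their order is not settled. Axl, the TAM receptor that Gas6 binds most tightly, stood at 435 and 405 TPM, while its relatives Tyro3 and Mertk stood at 27.7 and 24.5 TPM and at 3.32 and 3.27 TPM. Tgfbr2 stood at 324 and 305 TPM and the collagen receptor Ddr2 at 267 and 269.8 TPM. Fgfr1 was the highest FGF receptor at 164 and 154 TPM, with Fgfr2 at 3.95 and 4.05 TPM and Fgfr3 at 0.196 and 0.245 TPM. Of the endothelial receptors, Flt1 and Tek were detected at 13.03 and 13.5 CPM and at 4.43 and 4.91 CPM, whereas Kdr and Tie1 were at 0.315 and 0.376 CPM and at 0, and the neural receptors Ret and Ntrk2 were below 1 CPM.

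Cytokine and chemokine receptors were detected for 26 of 50 genes (52%), near the 55.1% of protein-coding rows. The highest, Il1r1, Il6st and Osmr, had overlapping ranges at 183 and 184 TPM, 189 and 177 TPM and 185 and 179 TPM, and Osmr came first with the longest transcript. These are the signalling receptor of interleukin 1, the shared chain of the interleukin 6 family and the oncostatin M receptor. Il4ra stood at 132 and 130.3 TPM, Ifnar2 at 117 and 114 TPM and Ifngr2 at 86.9 and 84.96 TPM. Chemokine receptors were scarce by comparison: Ackr3, a scavenging receptor for CXCL12, stood at 7.21 and 6.71 TPM, Cxcr4 at 0.910 and 1.04 TPM and Ccr2 at 0 and 0.0991 CPM, and Ccr7, Cxcr3 and Cxcr5 had 0 counts. Lymphocyte receptor chains were also missing, with Il2ra and Il10ra at 0 and Il7r at 0.0590 and 0 CPM.

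**Figure D3:**
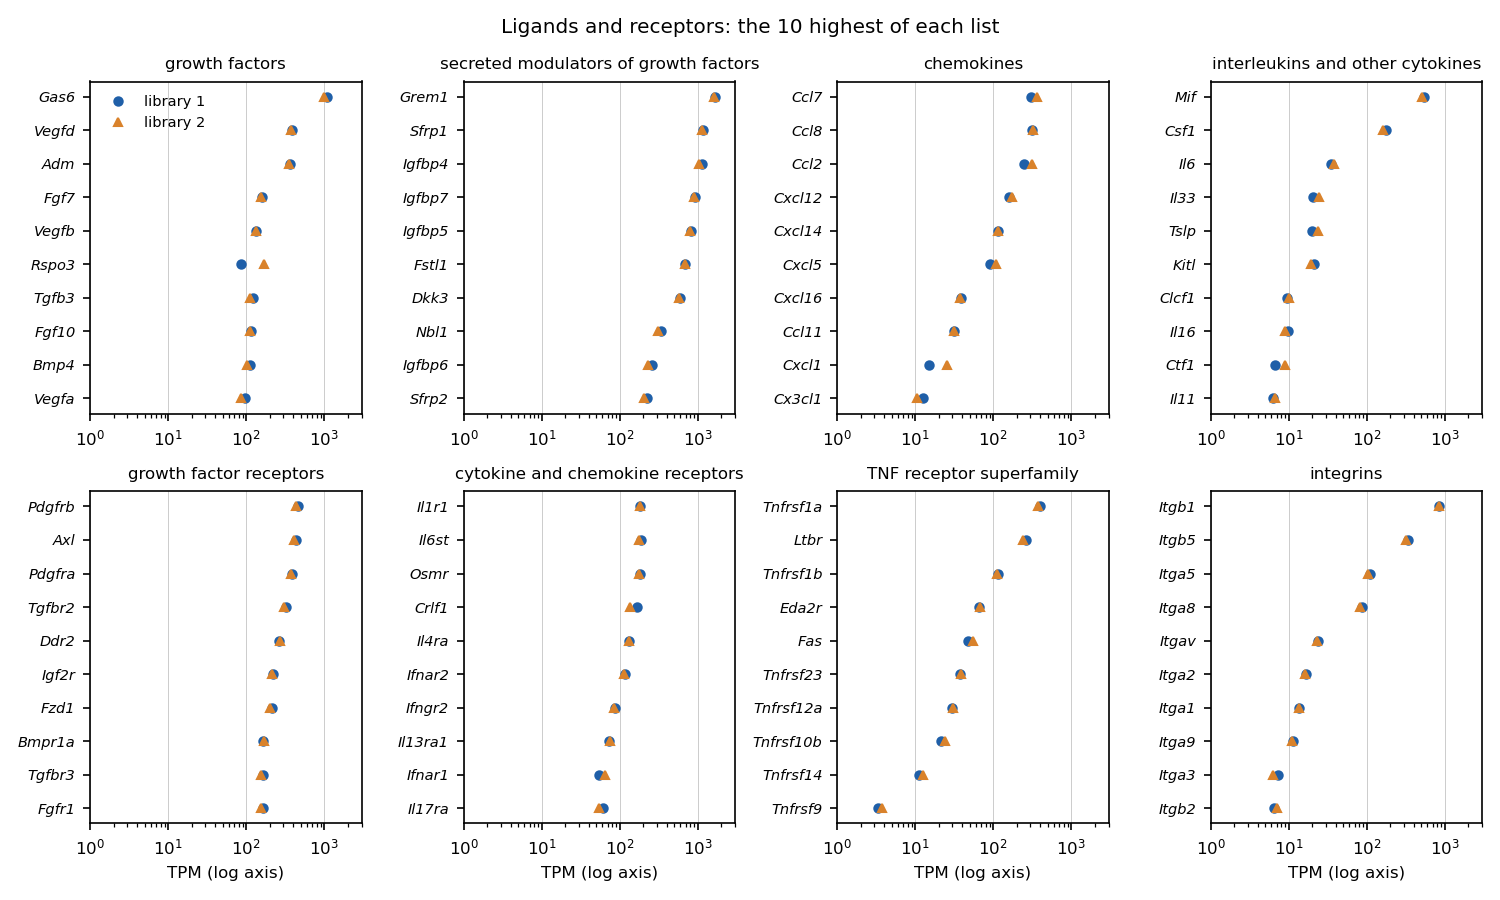
TPM (log axis) of the 10 highest genes in 4 lists of secreted signals (upper row) and 4 lists of receptors (lower row), with a circle for library 1 and a triangle for library 2. Most pairs overlap; Rspo3 and Cxcl1 stand out as pairs that are visibly apart.

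Pattern recognition genes were detected for 14 of 24 members (58.3%), near the 55.1% of protein-coding rows. Of these 1, Nod1, a sensor of bacterial wall peptide, reached 100 CPM at 179.7 and 157 CPM. The lipopolysaccharide receptor Tlr4 stood at 75.2 and 73.6 CPM, its co-receptors Cd14 and Ly96 at 17.7 and 17.5 CPM and at 9.86 and 9.55 CPM, and the adaptor Myd88 at 46.2 and 42.9 CPM. Tlr3, a sensor of double-stranded RNA, differed between the libraries at 14.8 and 8.38 CPM. Tlr9 had 0 and 0.0991 CPM, and the inflammasome sensor Nlrp3 had 0.0984 and 0 CPM.

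Integrin chains were detected for 17 of 26 genes. Itgb1, the common beta chain, was the highest at 832 and 843 TPM, followed by Itgb5 at 340.1 and 319.9 TPM. Among alpha chains Itga5, which pairs with Itgb1 as the fibronectin receptor, stood at 109 and 105 TPM, and Itga8 at 88.02 and 82.6 TPM. The collagen-binding chains Itga2, Itga1 and Itga11 stood at 16.8 and 16.04 TPM, 13.4 and 13.4 TPM and 5.54 and 6.52 TPM. The epithelial chain Itgb6 had 0 counts, and the leukocyte chains Itgal, Itgam and Itgax were at or under 0.218 CPM in each library.

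Receptors for hormones, lipids and peptides were detected for 42 of 53 genes. The thrombin receptor F2r stood at 429 and 421 TPM and the lysophosphatidic acid receptor Lpar1 at 345 and 337 TPM. The endothelin receptor Ednra stood at 79.8 and 79.8 TPM, with Ednrb at 5.70 and 4.42 TPM. The retinoid receptor genes Rarg and Rxra lay near the level of Ednra, at 83.4 and 71.9 TPM and at 75.2 and 67.4 TPM. The glucocorticoid receptor Nr3c1 was one of the unsteady genes, at 46.9 and 79.4 TPM. The oestrogen receptor Esr1 was below detection at 0.492 and 0.495 CPM and the progesterone receptor Pgr at 0.

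Transcription factors of lung mesenchyme were detected for 44 of 56 genes, and 7 reached 100 CPM. Tbx4, a T-box factor of lung bud mesenchyme, and Klf4, a zinc finger factor, were the highest with overlapping ranges, Tbx4 at 178 and 168 TPM and Klf4 at 179.7 and 159 TPM. Tbx2 and Tbx5, relatives of Tbx4, stood at 83.6 and 67.8 TPM and at 42.6 and 40.98 TPM. Foxf1, a hedgehog-responsive factor of lung mesenchyme, stood at 66.1 and 62.9 TPM and Tcf21 at 57.3 and 53.4 TPM. Of the factors tied to mesenchymal state, Snai1 stood at 98.3 and 95.97 TPM, Snai2 at 87.7 and 84.1 TPM, Prrx1 at 56.9 and 50.9 TPM and Zeb2 at 53.7 and 48.1 TPM, whereas Twist1 was low at 5.92 and 4.50 TPM. The hedgehog effectors Gli3 and Gli2 stood at 27.5 and 24.8 TPM and at 17.6 and 16.4 TPM, while Gli1, a target gene of the pathway, was at 0.0197 and 0.139 CPM. Hand1 had 0 counts. Foxp1, Foxp2 and Ebf1 were over 1.5-fold apart between the libraries, Foxp1 at 94.5 and 41.98 CPM.

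General factors and effectors of signalling were detected for 68 of 70 genes. Ctnnb1, beta-catenin, was the highest at 418 and 429 TPM. Atf4, the factor of the integrated stress response, stood at 248 and 339 TPM and Hif1a, of the hypoxia response, at 212 and 207 TPM. The AP-1 genes ran from Jund at 237 and 193 TPM and Junb at 106 and 95.7 TPM to Jun at 77.1 and 68.2 TPM and Fos at 9.51 and 10.7 TPM. Among NF-kB genes Nfkb1 stood at 25.6 and 23.6 TPM, Rela at 73.7 and 79.99 TPM, Nfkb2 at 40.9 and 39.04 TPM and Relb at 13.8 and 13.97 TPM. The mechanical effectors Yap1 and Wwtr1 stood at 79.9 and 81.7 TPM and at 164 and 139.9 TPM. Mycn and Tead4 were the members below detection.

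Lineage factors of other tissues gave the opposite picture, with 6 of 43 detected and 25 at 0 counts. The 3 that reached 10 CPM were GATA factors. Gata5 stood at 67.1 and 61.4 CPM, with counts that could include its overlapping partner Gata5os, Gata6, a factor of lung and heart, at 28.6 and 31.8 CPM and Gata2 at 21.3 and 18.8 CPM. Nkx2-1, Foxa1, Foxa2 and Sox2 of airway epithelium had 0 counts, as had the muscle factors Myod1 and Myog, the pluripotency genes Pou5f1 and Nanog, and Sox17 of endothelium.

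Hox genes record position along the body axis, and 15 of 39 were detected, none at 100 CPM. All detected members were in the Hoxa and Hoxb clusters. Hoxa5, which is needed for lung development, was the highest per length at 73.6 and 64.7 TPM. Hoxb7, Hoxb6, Hoxb5 and Hoxb4 followed between 36.3 and 57.4 TPM. Towards the ends of the Hoxb cluster the levels were lower, with Hoxb2 at 11.4 and 12.7 TPM, Hoxb8 at 12.1 and 9.98 TPM and Hoxb9 at 3.13 and 2.42 TPM, and Hoxb1 and Hoxb13 had 0 counts. Within the Hoxa cluster Hoxa9 was at 0.295 and 0.0991 CPM and Hoxa10 and Hoxa13 at 0. The Hoxc gene with the highest CPM was Hoxc4 at 0.590 and 0.614 CPM, and all 9 Hoxd genes had 0 counts.

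**Figure D4:**
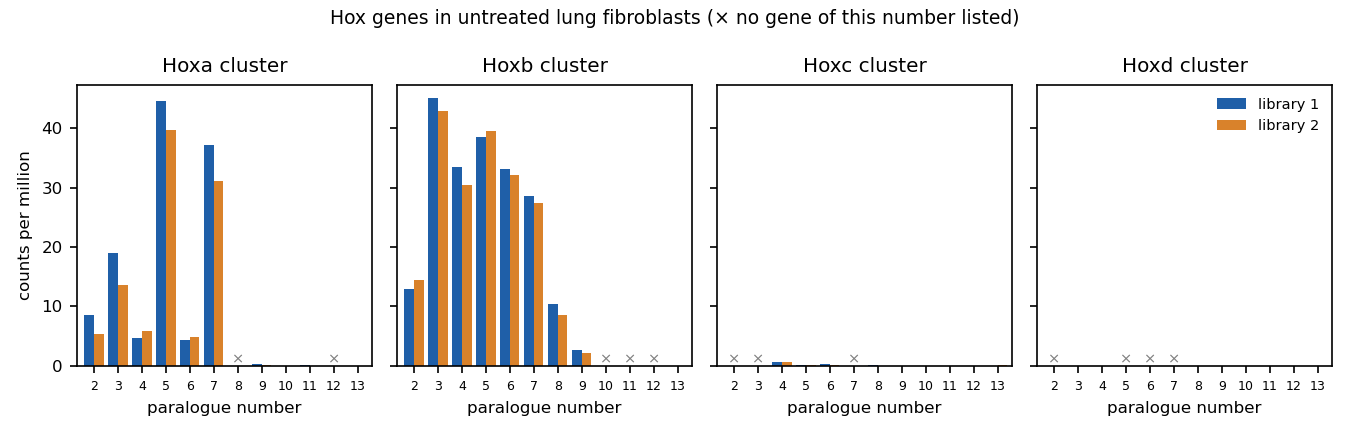
CPM (linear axis from 0) of the Hox genes from number 2 onward, by cluster and number along the cluster, with a blue bar for library 1 and an orange bar for library 2; a cross means that the list holds no gene of that number. Bars, which are not corrected for gene length, are visible for Hoxa2 to Hoxa7 and Hoxb2 to Hoxb9, up to 45.1 CPM in Hoxb3, and the Hoxc and Hoxd panels are flat near 0.

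Complement and acute phase genes were detected for 22 of 34 members. Serping1 led, followed by C3, the central component, at 622 and 646 TPM, and the C1 proteases C1s1 and C1ra at 603 and 619 TPM and at 267 and 255 TPM. C4b stood at 269.9 and 256 TPM. Their partners in the C1 complex, C1qa, C1qb and C1qc, were at or near 0, as were C8a, C9, Cfd and Crp. The acute phase gene Saa3 differed between the libraries at 199 and 296 TPM. C4a and C4b are near-identical copies, so the split between them is uncertain.

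Interferon-stimulated genes were detected for 33 of 35 members, while Ifnb1 and Ifna4 had 0 counts and Ifng had 0 and 0.0991 CPM. Ifitm2 and Ifitm3, which block virus entry, were far above the rest at 2990.1 and 2950.4 TPM and at 2516 and 2271 TPM. Bst2 stood at 396 and 268 TPM, Ifit3 at 249.6 and 205 TPM and Isg15 at 135 and 99.4 TPM. The list lay slightly lower in library 2, with a median log2 difference of -0.14, against -0.0048 over all genes that averaged 10 CPM or more. Other groups also lay apart. At that mean the median was -0.128 over 3 lineage factors of other tissues, 0.127 over 19 mitochondrial genes and 0.0897 over 84 ribosomal protein genes. Mx1 was not detected at 0.610 and 0.812 CPM, and neither was Oas1a by a narrow margin at 1.46 and 0.991 CPM.

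All 31 cell cycle genes were detected, at a median of 13.3 and 14.7 CPM, and 2 reached 100 CPM. The kinase Cdk4 stood at 231 and 204 TPM and cyclin D2, Ccnd2, at 168 and 169.6 TPM. The proliferation marker Mki67 stood at 4.39 and 4.61 TPM, the topoisomerase Top2a at 8.90 and 9.98 TPM, the mitotic kinase Plk1 at 3.99 and 4.41 TPM and cyclin B1, Ccnb1, at 3.31 and 3.22 TPM. Growth arrest and senescence genes were likewise all detected, 21 of 21, at a median of 53.5 and 53.6 CPM. The cell cycle inhibitor p21, Cdkn1a, stood at 297 and 284 TPM, the p53 target Ccng1 at 391 and 399 TPM and Gas1, a gene of arrested fibroblasts, at 454 and 387 TPM. Cdkn2a, whose products include the inhibitor p16, was low at 18.3 and 15.5 TPM. That count is for the whole gene and is not split by product. Replication-dependent histone genes were detected for 4 of 15. Messages of such genes mostly carry no poly(A) tail, and how RNA was selected for the libraries is not stated. Whether the counted messages had a tail was not tested. The 2 that passed 100 CPM, Hist1h1c and Hist1h2bc, stood at 174 and 158 CPM and at 110.1 and 118 CPM.

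The silent part of the table was made up mainly of rows that do not code for protein and of sensory and immune gene families. Of 21614 protein-coding rows 11909 (55.1%) were detected and 6322 had 0 counts. These rows held 96.7% and 96.5% of all counts. Detection was 6.76% among 7011 processed pseudogenes and 3.66% among 3603 lincRNA rows, and of 2147 miRNA rows 9 passed. Of 1355 olfactory receptor rows 1293 had 0 counts and 3 were detected. None of 506 vomeronasal, 43 taste or 170 T cell receptor V rows was detected, and all 346 immunoglobulin V rows had 0 counts. Of 55 keratin rows 47 had 0 counts and 2 were detected, and all 57 keratin-associated protein rows and all 5 caseins had 0 counts.

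The libraries were close but not identical. Over the 13171 detected genes the correlation of log2(CPM + 1) between them was 0.992 (Pearson) and 0.992 (Spearman), a correlation across genes, which are not independent replicates. Their counts were not those of 1 library deposited again: the chi-square against counting noise was 29.8 per degree of freedom over 16412 genes with at least 20 counts, with a median of 3.38 per gene, and 17.7 over the 9410 genes of 10 CPM or more within 1.5-fold. That says nothing of whether the spread is between cultures or technical. Among the 9668 genes that averaged 10 CPM or more, the median absolute log2 difference was 0.09, and 258 (2.67%) were over 1.5-fold apart. Of these, 103 were over 2-fold apart, 58 higher and 45 lower in library 2. The share over 1.5-fold apart was 14.4% for genes with a mean of 1 to 10 CPM, 2.87% for 10 to 100 CPM, 1.95% for 100 to 1000 CPM and 2.30% (2 of 87 genes) for 1000 CPM or more. The coefficient of variation beyond counting, from the common dispersion of edgeR, was 13.8% over 13454 genes with a mean of 1 CPM or more. It was 6.80% over genes with a mean of 10 CPM or more, without those over 1.5-fold apart. The second set leaves out the low genes and was chosen by the spread itself, so the 2 values cannot be compared directly.

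Among genes that averaged 10 CPM or more, without predicted genes, dates and repeated rows of a symbol, the largest difference was in Pcdhgb8. This clustered protocadherin row shares exons with 25 genes and had 120 and 18122 counts. Tmem127, a membrane protein gene with no overlapping exon, had 815 and 7334 counts, 9.06-fold apart. Dnal1, Fbxo34 and Zfx were the next highest in library 2, at 4.62 and 29.1 CPM, 3.82 and 20.3 CPM and 13.4 and 66.2 CPM. In the other direction Usf3 had 2287 and 388 counts, 5.86-fold apart. The mitochondrial ATPase gene mt-Atp6 had 115080 and 21092 counts, while its nuclear copy Gm10925 had 124336 and 130446, so the lower count of mt-Atp6 had no counterpart in that row. Wrb, Ndufaf4 and Lrch4 completed the 5 largest in that direction. Genes with a lower mean were not ranked, among them the histone gene Hist2h2aa1 with 0 and 688 counts. Exons overlapping another gene were annotated for 112 of 254 genes over 1.5-fold apart with a length (44.1%) and for 3595 of 9615 genes (37.4%) at a mean of 10 CPM or more.

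Within the 36 gene lists and 12 marker lists, which leave out the ribosomal protein and mitochondrial genes, 15 of 586 genes that averaged 10 CPM or more (2.56%) were over 1.5-fold apart, close to the 2.67% of all genes. Higher in library 2 were the imprinted zinc finger gene Peg3 at 49.3 and 244 CPM, Rspo3, Cdk2, Cald1, Ebf1, Cxcl1, Nr3c1, the insulin receptor Insr at 55.7 and 88.03 CPM and Saa3. Lower in library 2 were cyclin D3, Ccnd3, at 79.5 and 34.1 CPM, Foxp1, Ets1 at 32.6 and 15.8 CPM, Tlr3, Foxp2 and Ifi44. No fibrillar collagen, matrix glycoprotein, proteoglycan, protease or integrin with that mean was among them. This was not particular to those lists. None was among them either of 23 housekeeping genes, 18 cytokine and chemokine receptors and 18 growth arrest and senescence genes with that mean. At a share of 2.67%, lists of this size would hold few or none.

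**Figure D5:**
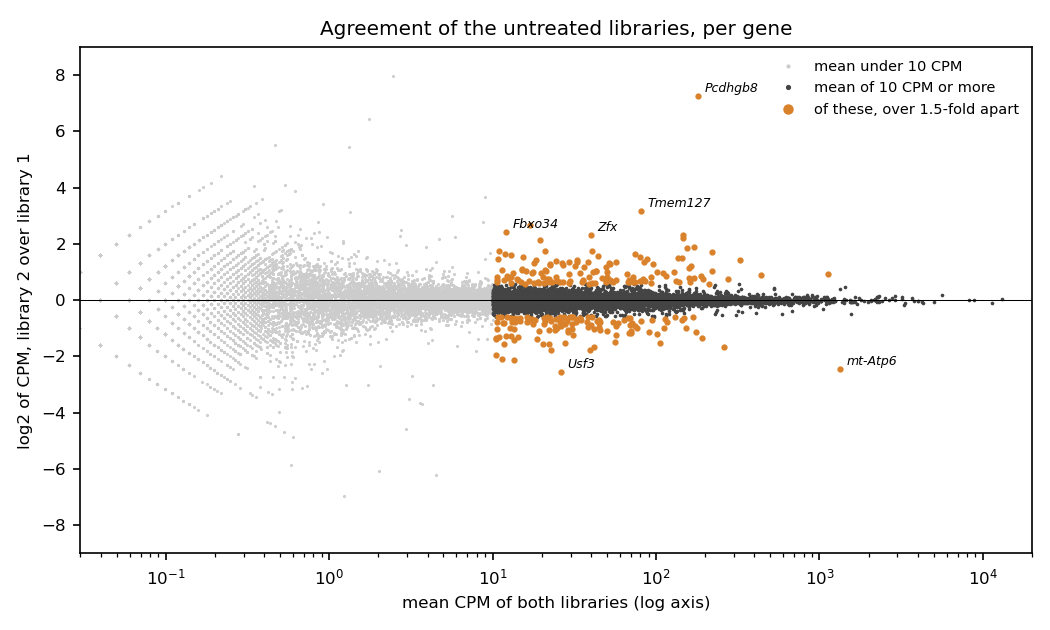
Log2 of the CPM in library 2 over library 1 (vertical axis) against the mean CPM of both (log axis), 1 point per gene, with genes of a mean under 10 CPM in grey and those over 1.5-fold apart at a higher mean in orange. The cloud narrows as the mean rises, and Pcdhgb8 at 7.25, Tmem127 at 3.18 and mt-Atp6 at -2.44 lie far from 0.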

How the data were processed

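The authors deposited 1 table of unnormalized counts for 8 libraries, with whole numbers throughout. The submitters' processing notes name STAR, StringTie and mm10, with no versions. Not given in the sources used here are the counting program, the annotation, the use of strand and the RNA selection, so counts of overlapping, antisense or near-identical genes are uncertain.

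The table had 55335 rows. Rows without a symbol, 3225, held 0.168% and 0.175% of counts and were left out of the library totals, and 80 symbols stood on more than 1 row. The 26 symbols turned into dates are not named. CPM were computed over the remaining 52110 rows. Lengths for TPM came from GENCODE M21 (mm10): 47843 rows matched 1 annotated gene, 197 through an older symbol, with 99.0% of detected genes. Length was the union of exons, and the longest transcript was the alternative. Promoters are from RefSeq (GRCm38.p6).

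The libraries were taken by their label. The choice to describe them, the 36 gene lists and the 12 marker lists were made with earlier results of these data known. Named genes were the markers, the 20 highest by CPM and by TPM, and up to 6 members of each list by TPM with defining members below 1 CPM. Also named were the 5 largest differences between the libraries in each direction at a mean of 10 CPM or more. That ranking left out predicted genes, dates and repeated rows of a symbol. Tnfsf12 and Tnfrsf12a were named as well, and further list members after their values were seen to complete a family. TMM factors (edgeR 4.0.16, R 4.3.3) were 1.00047 and 0.99953. The common dispersion of edgeR described the spread, and the script was tested on simulated data. Alternatives left out a library, changed the scaling, the detection level or the length, or thinned the libraries to equal depth. Python 3.11.15 with pandas 2.3.3 was used. Intervals for 0 counts cover counting error only. A few list members are counted in their lists but are not reported by name here. List members with no row of that symbol were left out of the denominators. Of 42 listed matrix glycoproteins 37 had a row, and of 36 complement and acute phase genes 34. The same held for 65 of 66 growth factors, 70 of 71 general factors and effectors, and 26 of 27 housekeeping genes.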

Additional observations from a re-analysis of the deposited data

How the results depend on the processing

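With 2 libraries of 1 group, the spread has 1 degree of freedom and no result could be tested. Under the alternatives the counts ran from 13168 to 15675 for genes detected and from 29192 to 32279 for genes at 0 counts. They ran from 1440 to 2136 at 100 CPM and from 83 to 106 at 1000 CPM. These counts stayed within 1.5 times the reported count under every alternative run. The correlation between the libraries, reported as 0.992, ran from 0.991 to 0.996. With the library total taken without mitochondrial genes, the 10 most abundant genes held 6.18% and the 100 most abundant 19.6% of counts, collagens 2.60% and ribosomal protein genes 3.81%. With TPM in place of CPM, 316 genes held 50%, the 10 highest held 12.9% and the 100 highest 36.5%, collagens 0.880%, ribosomal protein genes 6.88% and mitochondrial genes 12.1%. The count of genes over 1.5-fold apart was 810 from a mean of 1 CPM and 42 from a mean of 100 CPM, and 103 were over 2-fold apart. Over 825 named genes, TPM from the longest transcript was 0.801 to 2.56 times that from the union of exons, median 0.934, and over 1.5 times higher for 63 and lower by that much for 0. Leaving out a library gave 13449 and 13468 detected genes. Low genes are limited by depth: below 1 CPM, levels rest on about 50 counts or fewer. No paired analysis was possible because only the untreated group is described, so that the replicate numbers pair it with no other group.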

Other observations

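Genes with parental imprinting and long non-coding RNAs, 17 of 21 detected, included the growth factor adaptor Grb10 at 833 and 796 CPM and Ndn at 80.8 and 81.2 CPM, the nuclear RNAs Malat1 at 539.7 and 574 CPM and Neat1 at 239 and 248 CPM, and Meg3 at 54.5 and 53.6 CPM. The fetal imprinted genes H19 and Dlk1 stood at 2.70 and 3.84 CPM and at 0.216 and 0.515 CPM. Of the sex-linked list 4 of 8 were detected, all on the Y chromosome: Ddx3y at 82.6 and 84.2 CPM, Eif2s3y at 60.9 and 65.9 CPM, Kdm5d at 43.02 and 42.2 CPM and Uty at 24.1 and 28.8 CPM. Usp9y, Zfy1 and Zfy2 had 0 counts, and Xist, the RNA of the inactive X chromosome, had 0.177 and 0.0594 CPM. Which of Ddx3y and Eif2s3y was higher per length depends on the length, with a ratio of 1.09 and 1.02 over the union of exons and 0.918 and 0.866 over the longest transcript. The labels give no sex.

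Among the housekeeping genes, whose median was 739 and 778 CPM, the glycolytic genes stood at 1092 and 1143 CPM for Pkm, 778 and 839 CPM for Gapdh, 700.4 and 759 CPM for Aldoa, 600.4 and 608 CPM for Ldha and 519 and 549 CPM for Eno1. The chaperone genes stood at 1451 and 1465 CPM for Hsp90ab1, 1145 and 1519.6 CPM for Hspa8 and 369 and 406 CPM for Hsp90aa1. Members of both groups lay above and below the list's median. Rn7sk, Rpph1 and Rmrp, non-coding RNAs made by RNA polymerase III, stood at 0.807 and 1.05 CPM, 0.649 and 0.297 CPM and 0.413 and 0.238 CPM.

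Several abundant rows came in near-identical pairs. The mitochondrial gene mt-Co2 had 110406 and 120042 counts, and Gm28661, a pseudogene on chromosome 1 that copies it, had 110421 and 120066. For mt-Co3 and its copy Gm28437 the counts were 109063 and 118340 against 109079 and 118208, and for mt-Nd4l and Gm10222 they were 24578 and 25541 against 24358 and 25361. The 6 copies on chromosome 1 together held 0.990% and 1.07% of counts and 4.84% and 5.14% of TPM. The short feature Gm22133, inside an exon of Ftl1, had 24212 and 23210 counts where Ftl1 had 139264 and 154452. In the pair of mt-Atp6 and Gm10925, counts in library 1 were 115080 and 124336, and in library 2 they were 21092 and 130446. The cause was not tested.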
